A study of Mus musculus with 2 samples.

Results

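The miR-466, miR-467, miR-669 and miR-297 families are described here in the lungs of newborn mice. They are microRNAs of mouse and rat, and most of the mouse genes, 59 of the 69 described, stand in a tandem array inside an intron of Sfmbt2. The members were all rows of the deposited tables whose gene symbol begins with Mir466, Mir467, Mir669 or Mir297 followed by a letter, a hyphen or nothing. The rule used names only, not measured values. It found 69 of the 1973 miRNA genes in the tables, with 25 members of the Mir466 family, 17 of Mir467, 21 of Mir669 and 6 of Mir297. A further 12 genes of these names in the GENCODE M21 annotation have no row under their identifiers and were not analysed here. They are Mir466b-1, Mir466c-1, Mir466e and Mir669a-4 to Mir669a-12.

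MicroRNA genes are transcribed as longer RNAs, from which a hairpin precursor is cut out and then trimmed to a short mature strand. The mature strand guides a silencing complex to messenger RNAs that pair with its seed, near the 5′ end. Sfmbt2 encodes a Polycomb group protein and is imprinted, with expression from the paternal chromosome in the early embryo and the placenta. Its intronic microRNAs are known from embryonic stem cells and from the placenta, which needs them to develop normally.

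The study has 1 group of 2 libraries of small RNA, from animals of the B6NCrl strain on postnatal day 0. By the labels each library was made from the pair of lungs of 1 pup, pup 1 for replicate 1 and pup 3 for replicate 2 of the same pregnancy, and both carry 1 donor record. No treatment, mutation or second tissue is part of the design, and sex was not collected. The libraries held 4532902 and 5426081 reads on miRNA genes in replicates 1 and 2. Levels are own-strand reads per 1000000 such reads (CPM). Mir126a, a microRNA of endothelial cells, was the highest gene at 160649 CPM. They are not divided by precursor length, since a read covers a mature strand and not the precursor. Intervals and floors cover counting error only. A whole lung mixes cell types, so fewer expressing cells and less RNA per cell cannot be told apart.

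The sequences in the RefSeq table used here are shown first, before the counts of the members. Mature sequences on GRCm38.p6 were matched for 8 of the 69 members, each from a gene outside Sfmbt2. They are printed 5′ to 3′ with the seed, bases 2 to 8, in capitals.
miR-466i-3p: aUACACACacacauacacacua
miR-466j: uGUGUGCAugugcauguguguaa
miR-466k: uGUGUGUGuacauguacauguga
miR-466q: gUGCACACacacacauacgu
miR-467f: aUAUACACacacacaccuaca
miR-467g: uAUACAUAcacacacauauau
miR-467h: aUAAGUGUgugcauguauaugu
miR-669n: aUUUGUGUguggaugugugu
The hairpin of Mir297-1, the member of the Mir297 family with an entry, is printed with its UGUGUG run in capitals.
Mir297-1: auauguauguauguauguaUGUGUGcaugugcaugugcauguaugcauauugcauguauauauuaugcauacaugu

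These sequences lie at chr13:17747552-17747573 (plus strand) for miR-466i-3p, chr10:60960802-60960824 (plus) for miR-466j, chr3:85467396-85467418 (plus) for miR-466k and chr3:28419988-28420007 (plus) for miR-466q. miR-467f lies at chr11:69635419-69635439 (minus), miR-467g at chr5:34732872-34732892 (minus), miR-467h at chr9:115381898-115381919 (plus), miR-669n at chr3:115979905-115979924 (plus) and the Mir297-1 hairpin at chr7:10958437-10958512 (minus). The 8 mature sequences had 8 different seeds. One seed, that of miR-467h, was found in a mature miRNA of another gene in the table, miR-668-5p. All 8 contained UGUGUG or CACACA. So did 40 of the 1738 mature entries in the table, 2.30%, and the 40 include these 8. Only 9 of the 69 members were matched there, so this share leaves out most members. For the other 60 members no RefSeq sequence is printed. They are named with their levels below, and their precursors were compared in the GENCODE M21 transcripts.

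The 4 families together gave 7356 reads in replicate 1 and 9020 in replicate 2. This was 0.162% and 0.166% of the reads on miRNA genes, or 1643 ± 27.96 CPM (SD, n = 2). Nearly all of it came from a few members of Mir467 and Mir669. Mir467 totalled 1303 ± 39.1 CPM, Mir669 331 ± 13.7 CPM, Mir466 7.77 ± 2.57 CPM and Mir297 1.10 ± 0.0019 CPM. In these counted reads, which leave out reads with several positions, the order of the families was the same in both libraries. The Mir467 sum was 3.74 times that of Mir669 in replicate 1 and 4.14 times in replicate 2, a log2 difference of 1.98 ± 0.10 (SD, n = 2).

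At least 10 reads in each library were counted for 8 members, which is 11.6% of the 69, against 15.6% of all 1973 miRNA genes. A read in either library was seen for 21 members, 30.4%, against 33.8% of all genes. The other 48 members had no read in either library. The 8 members above the limit were 3 of Mir467, 4 of Mir669 and 1 of Mir466, and they held 99.65% and 99.67% of the families' reads in replicates 1 and 2. The 3 highest members took 79.3% of the families' level in counted reads, and the 5 highest took 96.6%. Reads with several positions are in no gene row, so these counts and shares leave them out. Of the 48 members with no read, 20 have no sequence of their own, as defined below.

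**Figure D1:**
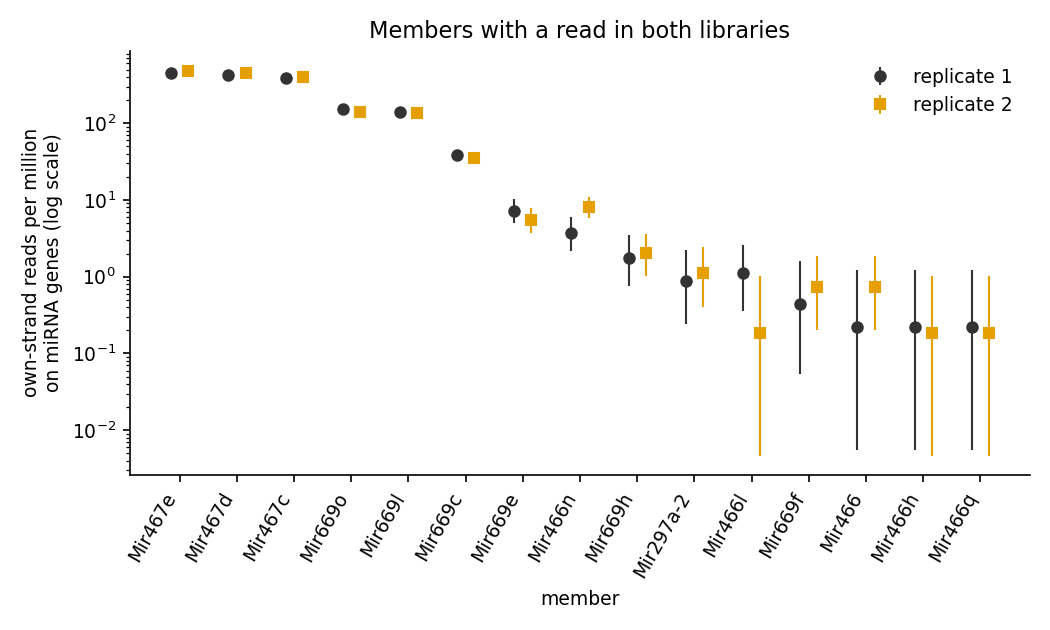
Levels in CPM (vertical axis, log scale) of the 15 members with a read in both libraries, for replicate 1 (circles) and replicate 2 (squares). Bars are exact Clopper-Pearson 95% intervals, which cover counting error only. The 3 Mir467 genes lie between 387 and 475 CPM, and levels fall below 10 CPM from Mir669e on.

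In the Mir467 family 3 genes carried the reads. Mir467e, with 2071 reads in replicate 1 and 2575 in replicate 2, stood at 457 and 475 CPM. By counted reads it was the highest member of the 4 families. Reads with several positions are in no gene row, so members without a sequence of their own, defined below, cannot be ranked this way. Mir467e, Mir467d and Mir467c have only part of their precursors to themselves, as given below. Their order is therefore one of counted reads, and the part of shared reads in it was not tested. Mir467e ranked 109 and 106 among all miRNA genes in replicates 1 and 2. Mir467d had 1952 and 2476 reads, or 431 and 456 CPM. Mir467c had 1755 and 2167 reads, or 387 and 399 CPM. In the counted reads of each library Mir467e was above Mir467d and Mir467d above Mir467c. The steps were small. Mir467e exceeded Mir467d by 26.3 and 18.3 CPM in replicates 1 and 2, a log2 step of 0.07 ± 0.02 (SD, n = 2). The SDs of the single genes between libraries were 12.5 CPM for Mir467e and 18.2 CPM for Mir467d. The 95% intervals of these 2 genes within a library overlapped. Mir467d exceeded Mir467c by 43.5 and 57.0 CPM, and their intervals did not overlap in either library.

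The rest of the Mir467 family was at or near 0 in the counted reads. The 10 copies named Mir467a-1 to Mir467a-10 had 0 reads in both libraries, and Mir467b had 1 read in replicate 1 and 0 in replicate 2. Mir467f, Mir467g and Mir467h, which lie on chromosomes 11, 5 and 9, had none. The precursor of Mir467d was 82.4% identical to that of Mir467a-1 and shared up to 55 consecutive bases with it. Mir467e was 92.0% identical to Mir467d and 83.7% identical to Mir467c.

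In the Mir669 family the reads were spread over more genes and a wider range. Mir669o had 695 and 757 reads in replicates 1 and 2, or 153 and 140 CPM. Mir669l had 631 and 748 reads, or 139 and 138 CPM. These neighbours in the order differed by 14.1 CPM in the first pup and by 1.66 CPM in the other, a log2 step of 0.08 ± 0.09 (SD, n = 2). The SD of Mir669o between libraries was 9.77 CPM, and the intervals of Mir669o and Mir669l overlapped in each library. Mir669c followed at 38.8 and 35.6 CPM, from 176 and 193 reads. Mir669e stood at 7.28 and 5.53 CPM, from 33 and 30 reads.

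The steps from Mir669l to Mir669c and from Mir669c to Mir669e were wider than the spread between libraries. Mir669l exceeded Mir669c by 1.90 ± 0.08 on the log2 scale (SD, n = 2), and Mir669c exceeded Mir669e by 2.55 ± 0.19. Mir669h was just under the detection limit with 8 and 11 reads, and Mir669f had 2 and 4. Mir669a-3 had 1 read in replicate 2 and 0 in replicate 1. The other 14 members of the family had no read, among them Mir669a-1, Mir669a-2, Mir669p-1 and Mir669p-2.

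The Mir466 family is the largest of the 4 by number of genes and among the lowest by reads. Mir466n, its highest member, had 17 reads in replicate 1 and 44 in replicate 2, or 3.75 and 8.11 CPM. It was below Mir669e in replicate 1 and above it in replicate 2, so the order of these genes was not fixed. Mir466l had 5 and 1 reads, the gene named Mir466 had 1 and 4, Mir466h and Mir466q had 1 in each library, and Mir466o, Mir466d and Mir466g had 1 read in all. The other 17 members had none, among them all 8 copies of Mir466b and Mir466c. In the Mir297 family Mir297a-2 had 4 and 6 reads, Mir297b had 1 and 0, and the other 4 members had none. With 0 reads, the limit allowed by 3 counts is 0.662 CPM in replicate 1 and 0.553 CPM in replicate 2, and it applies only to reads that map uniquely.

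The array was placed on GRCm38 (mm10), the assembly of the deposited tables. Sfmbt2 spans chromosome 2 from 10370510 to 10595253 on the plus strand. Within it, 59 of the 69 members lie on the same strand between 10466663 and 10518279, a span of 51.6 kb. All 59 are intronic, and all fall into a single intron of 62.5 kb from 10461473 to 10523944, intron 10 of one annotated transcript and intron 11 of another with 23 exons each. These 59 members held 1642 ± 27.98 CPM (SD, n = 2), while the 10 members elsewhere in the genome held 1 read in each library, that of Mir466q in an intron of Tnik.

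All 8 members above the detection limit lie in the Sfmbt2 intron. From the start of the array, Mir669e (ENSMUSG00000080653.1) spans 10467495 to 10467613, Mir669l (ENSMUSG00000076959.1) 10468971 to 10469068 and Mir467c (ENSMUSG00000077049.2) 10473931 to 10474027. Towards its end, Mir467e (ENSMUSG00000076948.2) spans 10505721 to 10505807, Mir467d (ENSMUSG00000077021.2) 10507630 to 10507714 and Mir669c (ENSMUSG00000076118.1) 10509296 to 10509404. They are followed by Mir466n (ENSMUSG00000077991.1) from 10513741 to 10513834 and Mir669o (ENSMUSG00000077086.1) from 10514300 to 10514395.

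**Figure D2:**
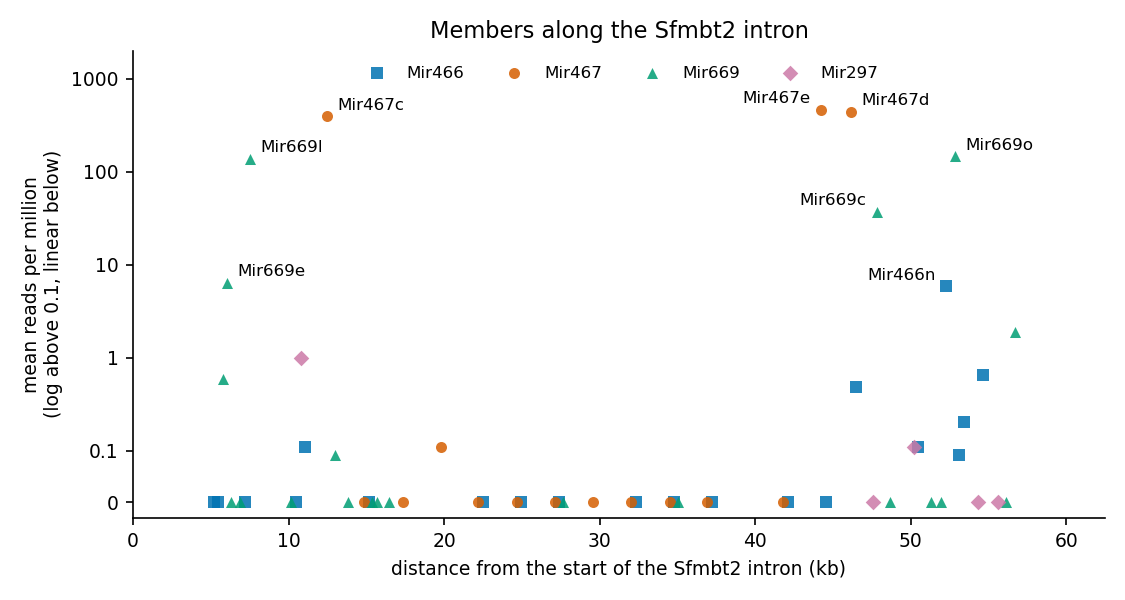
Mean level of the 59 members inside Sfmbt2 (vertical axis, CPM, log above 0.1 and linear below) against distance in kb from the start of the intron, with colour and shape giving the family. Members with at least 10 reads in each library are named. They lie at both ends of the array, up to 12.5 kb and from 44.3 kb on, with 2 members above 0 in between.

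Counted reads came from the ends of the array. The array was divided at Mir467c and Mir467e after its values had been seen, so the division is a description. The 13 members up to and including Mir467c held 535 and 545 CPM in replicates 1 and 2, and the 20 members from Mir467e on held 1087 and 1117 CPM. The 26 members between them held 1 read in each library, 1 of Mir467b and 1 of Mir669a-3. Of these 26 members, 19 had no sequence of their own in the sense given below, against 0 of 13 and 1 of 20 at the ends. Reads with several positions are in no gene row, and their part in the difference between the middle and the ends was not tested.

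The middle of the array is built of regular repeats. From one Mir467 gene to the next the median distance between starts was 2450 bases, with a range of 1909 to 4880 over 13 steps. In 10 of 14 cases the next miRNA row after a Mir467 gene was a Mir466 gene. For Mir467a-4, Mir467a-5, Mir467a-7 and Mir467a-8 the Mir466b copy began 206 bases after the end of the Mir467a copy. For Mir467e and Mir467d, the neighbours Mir466p and Mir466 began 199 and 204 bases after them. Mir466p had 0 reads in both libraries and Mir466 had 1 and 4, beside 2071 and 2575 reads of Mir467e and 1952 and 2476 of Mir467d.

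Nearly all members share sequence with other genes. A run of 20 bases that is also in the precursor of a different miRNA gene was present in 67 of 69 members, 97.1%, against 856 of the 1825 non-member genes with a sequence, 46.9%. The exceptions were Mir466g, with 0 and 1 reads, and Mir669n, with 0 in both libraries. All 8 members above the detection limit share such a run, Mir669e with 1 other gene, Gm27361, and Mir669o with 56. Mir467e shares one with 16 genes, Mir467d with 14, Mir467c with 16, Mir669l with 35, Mir669c with 45 and Mir466n with 29. For Mir467e, Mir467d and Mir467c, 15, 13 and 15 of these partners are members of the 4 families.

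Some precursors are exact copies. The 69 members have 59 different precursor sequences. Mir467a-2, Mir467a-4, Mir467a-5, Mir467a-7, Mir467a-8 and Mir467a-9 are identical to each other, as are Mir467a-3, Mir467a-6 and Mir467a-10. The pairs Mir466b-4 and Mir466b-6, Mir466b-5 and Mir466b-7, and Mir669p-1 and Mir669p-2 are identical as well. Reads of such copies cannot be given to a single gene.

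How much sequence each member has to itself was measured in windows of 22 bases, about the length of a mature strand. A window was counted as the member's own if it occurred once in its precursor and in no other miRNA gene. The search covered both strands of the 2202 miRNA genes of GENCODE M21. No own window was found in 20 of the 69 members, against 240 of the 1825 non-member genes with a sequence. The 20 members are the 10 copies of Mir467a, 6 copies of Mir466b and Mir466c, Mir669a-1, Mir669a-2, Mir669p-1 and Mir669p-2. All 20 had 0 reads in both libraries. A read of window length from these members matches another miRNA gene as well, and the part of such uncounted reads in the zeros was not tested.

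The 49 members with an own window held all of the reads, and 21 of them had a read. With gene rows read as uniquely mapped reads, a read of window length from the other 20 members would not be counted. That split therefore follows in part from the counting and is no result about level. Of the 25 members with own windows under 50%, 1 had at least 10 reads in each library, Mir467d at 39.1%. Of the 24 members with 50% or more, 7 had. These are 4.0% and 29.2%, beside 15.6% of all miRNA genes. Reads on shared windows are not counted here either, so this division also depends on the counting and is no result about level. Mir467e had 59.1% own windows, Mir467c 63.2%, Mir669o 58.7%, Mir669l 53.2%, Mir466n 58.9%, Mir669c 83.0% and Mir669e 96.9%. Among these 8, the highest shares belong to Mir669e and Mir669c, at 6.40 and 37.2 CPM. Members with a high share and no reads also occur, such as Mir669n at 100% and Mir669b at 89.5%. The windows were compared among miRNA genes and not with the whole genome, so an own window can still recur elsewhere.

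**Figure D3:**
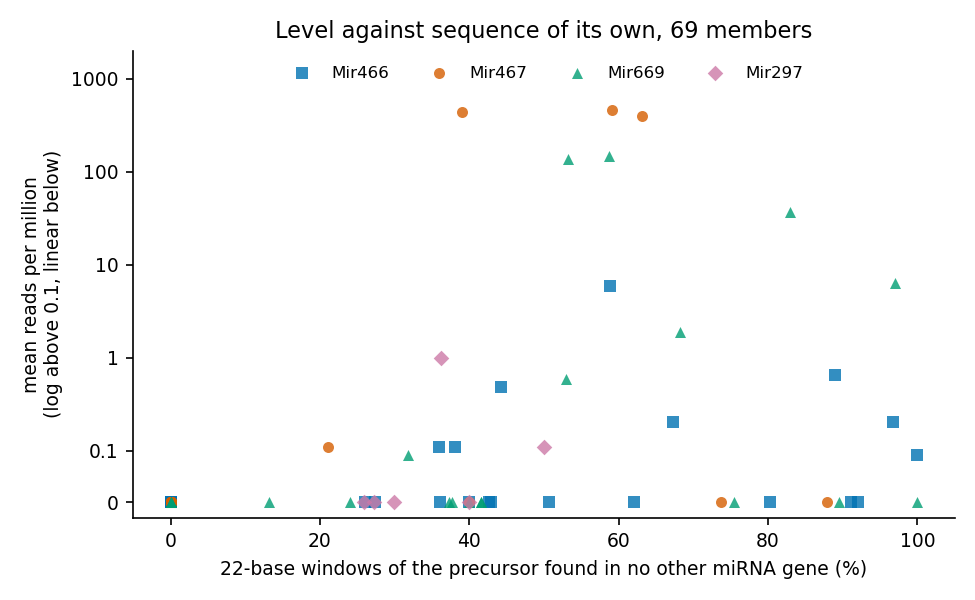
Mean level of all 69 members (vertical axis, CPM, log above 0.1 and linear below) against the percentage of 22-base windows of the precursor found in no other miRNA gene. The 20 members at 0% on the horizontal axis are all at 0 reads, and members above 50% range from 0 to 465.7 CPM. Reads with several positions are in no gene row, so the 0 reads of those 20 members do not measure their level.

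The precursors share their composition too. TGTGTG or its reverse complement CACACA occurred in all 69 members and in 16.9% of the non-member precursors, where the median length was 94 bases for the members and 90 for the others. The median GC content was 37.2% in the members and 51.7% in the others. Of the distal Dlk1-Dio3 cluster, the imprinted array on chromosome 12 from Mir379 to Mir410, 18.2% of the precursors held the motif. A match describes the letters only.

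The other miRNA rows inside Sfmbt2 had few reads. There are 48 such rows that are not members. They held 5 and 8 reads in all in replicates 1 and 2, and 5 of the 48 had a read. The highest were Gm22072 and Gm22239, with 2 reads in each library, followed by Gm25263 with 1 and 2. Gm26491 and Gm22925 had 0 and 1. Of these 48 rows, 46 share a 20-base run with another miRNA gene, and 22 have no own window. Among all 1825 non-member genes with a sequence, which include these rows, the counts are 856 and 240.

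Beside 2 other groups of miRNA genes, the summed level of the families lay between the groups, and the share of genes with a shared run was the highest of the 3. The distal Dlk1-Dio3 cluster held 24346 ± 492 CPM (SD, n = 2) over 33 genes, which was 14.8 and 14.9 times the level of the 4 families in replicates 1 and 2. At least 10 reads in each library were counted for 84.8% of those 33 genes, and 12.1% of them share a 20-base run. A set of 122 later-named miRNA genes, whose 4-digit numbers begin with 3, 4 or 5, held 771 ± 42.7 CPM, with 13.9% at 10 reads or more in each library and 16.4% sharing a run. These are values side by side, and no test of the difference between groups of genes was made. Reads with several positions made up 34.6% and 36.7% of the libraries, 2860715 and 3812820 reads. They are in no gene row, and their part in these levels was not tested.

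**Figure D4:**
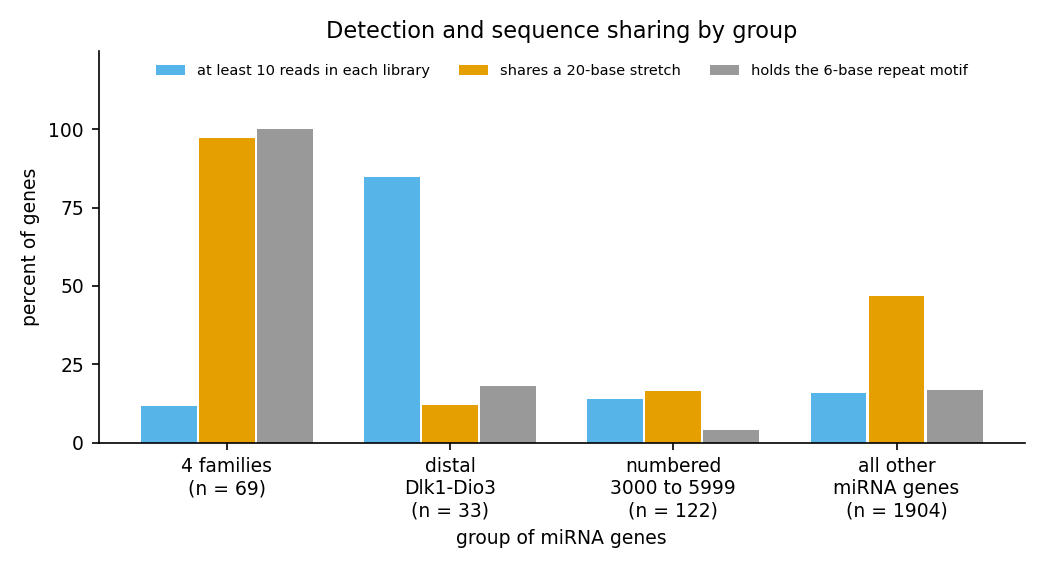
Percentage of genes (vertical axis, from 0) with at least 10 reads in each library, with a 20-base run shared with another miRNA gene, and with the 6-base repeat motif, in the 4 families, 2 other groups and all non-member genes, which include those groups. For the last 2 measures, non-member genes are the 1825 with a sequence. The 4 families stand at 11.6%, 97.1% and 100%.

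The pups were compared member by member, which compares these libraries and not conditions. The 375 miRNA genes whose reads summed to 10 or more were tested with an exact binomial test, two-sided and adjusted by Benjamini-Hochberg, and 42.4% of them passed at 0.05. Of the 69 members 10 were tested and 1 passed. It was Mir466n, at 3.75 and 8.11 CPM in replicates 1 and 2, with a log2 ratio of 1.11 with an adjusted p of 0.0177 in the exact test. That call rests on 17 and 44 reads. These p-values set 1 library against 1 and cover counting error only, with reads taken as independent, so they do not measure the spread between pups.

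The abundant members differed little between pups. The log2 ratios of replicate 2 to replicate 1 were 0.055 for Mir467e, 0.084 for Mir467d and 0.045 for Mir467c, with adjusted p of 0.342, 0.122 and 0.504 in the exact test. They were -0.14 for Mir669o, -0.01 for Mir669l, -0.13 for Mir669c and -0.40 for Mir669e, with adjusted p of 0.152, 0.941, 0.577 and 0.477 in the exact test. All 3 Mir467 genes were thus higher in replicate 2 and all 4 of these Mir669 genes lower, none past the threshold. With TMM library sizes the 3 Mir467 genes also passed, at log2 ratios of 0.12, 0.15 and 0.11 and adjusted p of 0.00992, 0.00150 and 0.0345 in the exact test, and Mir669l turned to 0.055. That is 4 of the 10 members tested, where 162 of all 375 genes passed under that scaling. With DESeq2 size factors Mir467e and Mir467d passed, at 0.11 and 0.14, and Mir669l stood at 0.040. With Mir466n that is 3 of 10 members, where 159 of all 375 genes passed. The median size of the log2 ratio was 0.13 over the 10 members tested and 0.22 over all genes tested.

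Reads of the members lay on one strand. None of the 69 had a read on the opposite strand in either library, beside 7356 and 9020 on their own. Over all miRNA genes the opposite strand held 1.81% and 1.96% of the reads. The absence of such reads was not particular to the 4 families. The distal Dlk1-Dio3 cluster had 0 as well, beside 108784 and 133992 reads on its own strand in replicates 1 and 2. The other miRNA rows inside Sfmbt2 also had 0, beside 5 and 8. The set of later-named miRNA genes did have opposite-strand reads in both libraries. Of the members outside Sfmbt2, Mir467f, Mir466i, Mir466k, Mir669n and Mir467g lie opposite to another annotated gene (Fxr2, Cdk13, Gm37240, Slc30a7 and Grk4), and these also had 0 reads on either strand.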

How the data were processed

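Small RNA reads were measured in 2 libraries of newborn lung, 1 group of 2 biological replicates per the labels. The authors deposited 1 table of whole-number read counts per miRNA gene for each library, not normalized, on mm10 with annotation M4 per the deposited descriptions. No source used here names the aligner, the counter, the trimming or any filter. The tables hold 3 count columns, for either strand, one strand and the other strand. The first equals the sum of the others, and the second, with 98.2% and 98.0% of the reads on genes, was read as the gene's own strand. The 4 rows that name no gene were left out of library sizes. Reads with several positions have a row of their own, so the rows of genes were read as uniquely mapped reads.

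Symbols and positions came from GENCODE M21, on the same assembly, which matched 1894 of 1973 identifiers. The 79 without a match held 1 read. Precursors were taken from the M21 transcripts and mature sequences from a table of RefSeq entries on GRCm38.p6, in which 9 of 69 members were matched. Identity is from global alignment in Biopython 1.88. CPM is the own-strand count per 1000000 own-strand reads on genes. The split of each gene's reads between libraries was tested by SciPy 1.17.1 over all genes, after a check on simulated data. edgeR 4.0.16 (TMM) and DESeq2 1.42.0 gave alternative scalings. With 1 library on each side, edgeR's quasi-likelihood test was not used. Named are members with 10 reads in each library, the highest of each family, members past the test, and others by count. The rule also asked for members with opposite-strand reads, and there were none. Members and lists were chosen with earlier results of these data known. The measure of own windows and the division of the array were chosen after the values were seen.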

Additional observations from a re-analysis of the deposited data

How the results depend on the processing

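The summed level of the 4 families, 1643 CPM, was 1612 CPM with reads of either strand and 878 CPM with all reads of the library as denominator. It was 1643.5 CPM with TMM library sizes, 1643.2 CPM with DESeq2 size factors, and 1642 CPM with members inside Sfmbt2 alone. Leaving out the members that share a 20-base run left 0.092 CPM, because 2 members remain. Without replicate 1 or replicate 2 it ranged from 1623 to 1662 CPM. The 8 members above the detection limit became 15 with 1 read in each library as the limit and 6 with 100 reads, and 8 to 9 with a single replicate. The number of members sharing a run was 67 at 20 bases, 68 at 18 and 67 at 22. The 1 member past the test became 4 with TMM library sizes and 3 with DESeq2 size factors, where 162 and 159 of all 375 genes passed. The count was 1 with no filter on low counts, where 21 members were tested and 147 of all 667 genes passed, and 1 with reads of either strand, where 165 of 385 passed. Of the log2 ratios of the 8 named members, that of Mir669l changed sign, to 0.055 with TMM library sizes and 0.040 with DESeq2 size factors. Over the 4 alternatives to 8 members' ratios, 25 of the values kept sign and side of the threshold, and 5 passed it newly. Members with no own window numbered 20 with windows of 18 bases and 19 with windows of 25, alternatives chosen after seeing the data. A ratio between libraries cannot be recomputed without a replicate. No paired analysis was possible because the design has 1 group. For a member at 0 reads, depth sets an upper limit of 0.662 and 0.553 CPM in the 2 libraries, for uniquely mapped reads alone.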
